A study of Mus musculus with 6 samples.

Results

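Gcat, an enzyme of threonine breakdown, was measured in bone marrow hematopoietic stem and progenitor cells (HSPCs) beside the enzymes that make and use serine, glycine and folate-bound one-carbon units. The 10 genes were taken by symbol from the deposited table of 23997 symbols: Gcat, Tdh, Shmt1, Shmt2, Phgdh, Psat1, Psph, Mthfd1, Mthfd2 and Gldc. Gcat was selected on its difference between the genotypes in these same libraries and the others as its pathway, so their differences are a description: no p is given for them, and the calls that fits over all genes made among them are counted below but read as no evidence. The RNA-seq compared 3 wildtype with 3 Mirc11-/- libraries of sorted Lin-Sca1+cKit+ (LSK) cells. The RNA of a library came from 3 to 4 C57BL/6 mice aged 6 to 8 weeks. The paper reports skewed bone marrow hematopoiesis in Mirc11-/- mice, with more B cells and fewer myeloid cells. Mirc11-/- animals carry a germline deletion of the locus of the 3 miRNAs miR-23a, miR-27a and miR-24-2, so the loss is not limited to HSPCs. All 6 libraries carry the same batch label, and nothing in the labels says that the animals of one library were kept apart from those of another, so the spread between libraries may be in part technical.

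The reads counted to genes, summed over the listed symbols, were 15029379 to 17051541 per library and are not all reads sequenced. A value is a read count divided by the size factor of its library, called a normalized count below. Mir23a stood at 15.8, 15.9 and 19.3 normalized counts in the wildtype libraries and was listed at 0 in the 3 Mirc11-/- libraries, as were Mir27a and Mir24-2, which matches the labels. The 12 LSK markers, among them Kit, Ly6a and Cd34, were above 0 in every library and summed to between 41740 and 49304 normalized counts in the wildtype and to 27950, 35243 and 49343 in Mirc11-/- libraries 1, 2 and 3. The 20 erythroid markers, none of them at 0 in any library, summed to between 26880 and 36490 normalized counts in the wildtype libraries and to 64059, 58990 and 28361 in the Mirc11-/- libraries in the same order. In these sums the paired hemoglobin entries Hba-a1 and Hba-a2, and Hbb-bs and Hbb-b1, hold equal values. The 12 proliferation markers summed to between 52245 and 66695 in the wildtype and to 80736, 67570 and 53266 in the Mirc11-/- libraries in the same order. In a bulk library, fewer cells of a type and less RNA per cell cannot be told apart.

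Serine is made from a glycolytic intermediate by Phgdh, Psat1 and Psph in turn. The hydroxymethyltransferases Shmt1 in the cytosol and Shmt2 in mitochondria move a carbon of serine onto folate and leave glycine, and Mthfd1 and Mthfd2 interconvert the folate-bound units used for purines, thymidylate and methionine. Glycine also arises from threonine through Tdh, a dehydrogenase, and Gcat, the mitochondrial ligase that splits the product into glycine and acetyl-CoA, and it is broken down by the glycine cleavage system, whose decarboxylase is Gldc. In blood-forming cells glycine is a substrate of heme synthesis as well as of purine synthesis.

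The mature sequences of the miRNAs encoded at the deleted locus are shown because their seeds, bases 2 to 8 in capitals, set which transcripts they can pair with. RefSeq places them on the plus strand of chromosome 8 in GRCm38.
miR-23a-3p: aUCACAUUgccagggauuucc
miR-27a-3p: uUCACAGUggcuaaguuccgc
miR-24-3p: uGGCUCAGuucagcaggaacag
The seeds of miR-23a-3p and miR-27a-3p differ only next to their last base, and none of the 3 miRNAs has the seed of another. The longest GENCODE M21 3′ UTR of each gene was searched for the 7 bases complementary to the seed, or for the complement of bases 2 to 7 followed by A. A match stood in 4 of the 10 genes, against 55.4% of the 13566 tested genes that had an annotated 3′ UTR. The 1059-base 3′ UTR of Gcat held none, and those of Tdh, Shmt2, Psph, Mthfd1 and Gldc held none either. The matches to miR-27a-3p lay in Shmt1, Phgdh and Psat1 and the match to miR-24-3p in Mthfd2, each shown with 10 bases on either side, the match in capitals, all on the minus strand of GRCm38.
Shmt1, chr11:60789081-60789107: ttccgggaccCTGTGAAccctgtgccc
Phgdh, chr3:98313233-98313259: aacccgctcaACTGTGAcctataggga
Psat1, chr19:15905261-15905287: ccaccctcaaACTGTGAtcacgtggct
Psat1, chr19:15905101-15905127: cattcattgcCTGTGAAttattctgct
Mthfd2, chr6:83306622-83306648: tagcagcactCTGAGCCagcccgagag
A match describes the letters of the transcript, and not binding or a release by the deletion. The paper names a paralog cluster with related miRNAs, miR-23b and miR-27b among them. Their levels were not looked at here.

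Gcat, at chr15:79030874-79038353 on the plus strand of GRCm38, had the lowest level per length of the 8 enzymes that were measured above the floor and the largest genotype difference among them. The wildtype libraries held 230, 273 and 211 normalized counts and the Mirc11-/- libraries 127, 118 and 123. The highest Mirc11-/- value was well under the lowest wildtype value. The part of the LSK, erythroid and proliferation markers, whose sums differ between the Mirc11-/- libraries, was not tested. The means were 238 ± 31.8 (SD, n = 3) in wildtype and 123 ± 4.17 (SD, n = 3) in Mirc11-/-, a ratio of 0.516. On the log2(value + 1) scale the difference was −0.94 (SE 0.15, 95% interval −1.29 to −0.59). The reads behind these values were 233, 275 and 208 against 134, 114 and 122, so counting error alone gives an SD of 10.9 to 11.1 normalized counts for a Mirc11-/- library. The spread of the 3 Mirc11-/- values was 0.378 times that counting error, and that of the wildtype values 2.07 times theirs. Of the 15662 genes tested, 361 had a log2 difference as low as that of Gcat or lower, a share of 2.30%. The number was 38 among the 10553 genes whose mean reached 100 normalized counts.

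**Figure D1:**
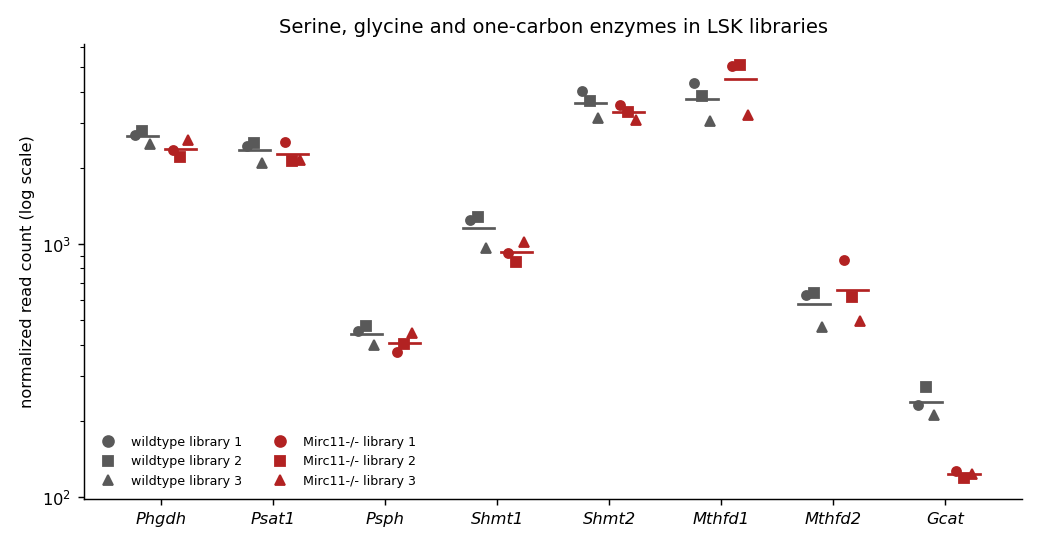
Normalized read count on a log axis of the 8 enzymes above the minimum in each of the 6 LSK libraries, with grey symbols for wildtype, red for Mirc11-/-, a symbol shape per library number and a line at each group mean. Only for Gcat do all 3 Mirc11-/- libraries, at 118 to 127, lie under all 3 wildtype libraries, at 211 to 273.

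The partner of Gcat in threonine breakdown and the decarboxylase of glycine cleavage were not detectable at this depth. Tdh had 1 read in wildtype library 1 and 0 reads in the other 5 libraries, of 48152713 wildtype and 47346843 Mirc11-/- reads counted to genes. Gldc had 1 read in Mirc11-/- library 3 and 0 reads elsewhere. A count of 0 allows up to 3 reads, which is 0.176 to 0.200 reads per 1000000 by library, and 0 reads in a whole group allow 0.0623 for Gldc in wildtype and 0.0634 for Tdh in Mirc11-/-, counting error only. Both genes fell under the minimum mean of 1 normalized count, so 8 of the 10 enzymes entered the fit. The other parts of the glycine cleavage system were measured in the same libraries: the aminomethyltransferase Amt at 43.4 to 60.2 normalized counts, the carrier protein Gcsh at 659 to 850, and Dld, which also serves other dehydrogenase complexes, at 2032 to 2608. Amt differed by 0.16 (SE 0.23), Gcsh by 0.02 (SE 0.11) and Dld by 0.07 (SE 0.10) on the log2 scale, and for each the groups overlapped.

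The 3 enzymes of serine synthesis overlapped between the genotypes. Phgdh, the first enzyme of the pathway, stood at 2701, 2807 and 2480 normalized counts in wildtype and at 2350, 2206 and 2573 in Mirc11-/-, a log2 difference of −0.16 (SE 0.09). Libraries 1 and 2 of Mirc11-/- were under all wildtype libraries and library 3 was above the lowest of them. Psat1, the aminotransferase, stood at 2447, 2502 and 2087 against 2536, 2134 and 2143, a difference of −0.05 (SE 0.10), with the highest of its 6 values in Mirc11-/- library 1. Psph, the phosphatase, stood at 455, 472 and 399 against 375, 401 and 443, a difference of −0.12 (SE 0.12). Psph shares 452 exonic bases with a model named Cct6a on the opposite strand, which the annotation types as a processed transcript. The symbol Cct6a, that of a chaperonin subunit gene, had means of 6003 and 6278 normalized counts. How much of these counts came from the overlapping model is not known. The strand setting of the counting is not given in the sources used here, so reads of the shared stretch may not be told apart.

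Shmt1 came next to Gcat in size of difference among the 8 enzymes. The wildtype libraries held 1242, 1275 and 961 normalized counts and the Mirc11-/- libraries 923, 851 and 1018. Mirc11-/- libraries 1 and 2 were under every wildtype library, while Mirc11-/- library 3 was above wildtype library 3. The log2 difference was −0.31 (SE 0.13, 95% interval −0.60 to −0.02). Shmt1 overlaps Smcr8 on the opposite strand by 184 exonic bases, with the same limit of strand as for Psph. Shmt2, the mitochondrial enzyme, stood at 4040, 3676 and 3151 against 3550, 3315 and 3091 and differed by −0.12 (SE 0.10), with overlapping groups. Per kilobase of exons, Shmt2 made up 79.6% ± 1.19 (SD, n = 3) of the sum of both hydroxymethyltransferases in wildtype and 81.6% ± 2.16 (SD, n = 3) in Mirc11-/-, so the mitochondrial form was the more abundant transcript in every library, at 78.3% to 83.0%.

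Mthfd1 and Mthfd2 were the only enzymes of the 8 with a higher mean in Mirc11-/-, and their Mirc11-/- libraries did not move together. Mthfd1, the cytosolic enzyme that combines several folate reactions in 1 protein, stood at 4334, 3864 and 3070 normalized counts in wildtype and at 5076, 5122 and 3238 in Mirc11-/-. Libraries 1 and 2 of Mirc11-/- were above all wildtype libraries and library 3 was near the lowest. The difference was 0.24 (SE 0.19). Mthfd2, a mitochondrial dehydrogenase and cyclohydrolase, stood at 630, 641 and 468 against 861, 618 and 494, and differed by 0.16 (SE 0.20), with only library 1 above the wildtype range. The 2 libraries with high Mthfd1 were those in which the erythroid markers had a median 1.5 and 1.38 log2 units above the wildtype mean, where library 3 had −0.17. The proliferation markers had medians of 0.45, 0.16 and −0.26 in the same 3 libraries. Shmt1 went the other way, at −0.32 and −0.43 log2 units against the wildtype mean in libraries 1 and 2 and at −0.18 in library 3. The part of either marker group in the values of these 3 enzymes was not tested.

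**Figure D2:**
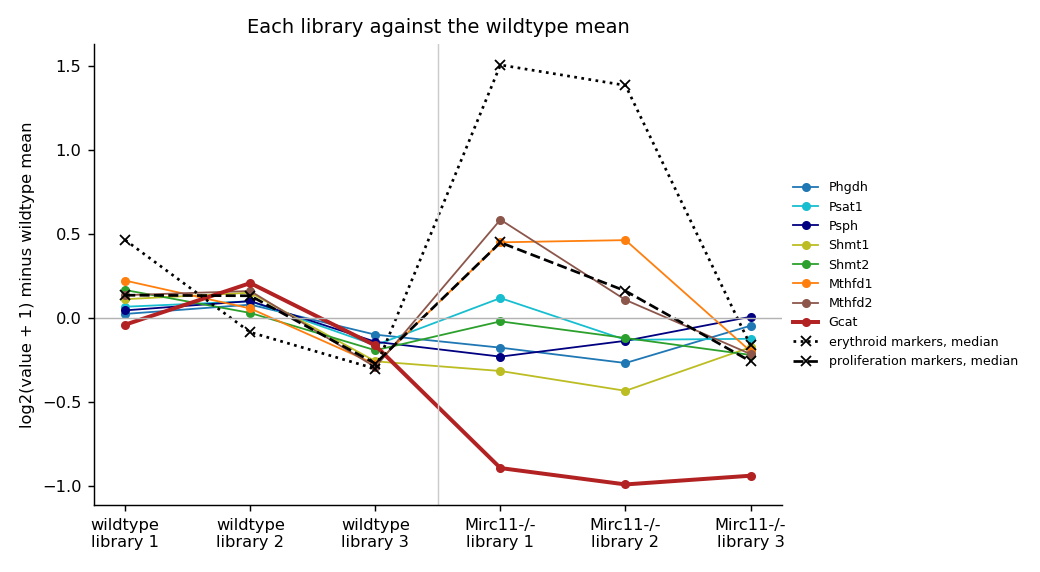
Difference of each library from the wildtype mean on the log2(value + 1) scale for the 8 enzymes (coloured lines), with the medians of the 20 erythroid (dotted) and 12 proliferation (dashed) markers. Gcat lies at −0.89, −0.99 and −0.94 in the 3 Mirc11-/- libraries, while Mthfd1 lies at 0.45, 0.46 and −0.20.

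Within the wildtype group the enzymes shared a pattern that the genotype does not enter. Wildtype library 3 had the lowest wildtype value for 8 of the 8 enzymes, from −0.10 log2 units against the wildtype mean for Phgdh to −0.29 for Mthfd2. The same library was lowest for 37.0% of all tested genes and for 12 of the 12 proliferation markers. The 8 enzymes share the library and its size factor, and the part of the proliferation markers was not tested.

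Read against all genes, the 8 enzymes gave 0 calls in the limma fit at an adjusted p under 0.05, where 0.0319% of the 15662 genes tested were called. At an unadjusted p under 0.05 by limma the number was 2, Gcat and Shmt1, against 8.24% of all genes. Of the 8, only Gcat had groups that did not overlap, against 12.9% of all genes. Of the count tests on the recovered reads, edgeR called 0 of the 8 against 0.0255% of genes, and DESeq2 called 1, Gcat, against 0.924% of the genes to which it gave an adjusted p. Because Gcat was chosen by this contrast, these counts are no test of it and nothing is read from them. The log2 difference was negative for 6 of the 8, with a median of −0.12, against a median of 0.00 over all genes tested.

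Levels of different genes were compared per kilobase of merged exons, a length that 14883 of the 15662 genes tested had. In the wildtype the order was Shmt2 at 1165 ± 144 normalized reads per kilobase (SD, n = 3), Phgdh at 1071 ± 67.1, Mthfd1 at 846 ± 144, Psat1 at 551 ± 52.9, Shmt1 at 299 ± 44.5, Mthfd2 at 166 ± 27.8, Psph at 102 ± 8.81 and Gcat at 79.6 ± 10.7. The wildtype ranges of Shmt2 and Phgdh overlapped, while those of every other pair of neighbours in this order did not. Psph and Gcat lay close, with the lowest wildtype Psph at 92.2 and the highest wildtype Gcat at 91.3. Merged exons take in every annotated model, so the order depends on lengths that the expressed transcripts may not have. Among the tested genes with a length, Shmt2 stood at percentile 96.0 and Gcat at percentile 46.2. In Mirc11-/- Gcat was at 41.0 ± 1.40 (SD, n = 3) and Mthfd1 at 1008 ± 242. Set against Shmt2, the other mitochondrial source of glycine in the list, Gcat made up 6.42% ± 0.80 (SD, n = 3) of the sum of both per kilobase in wildtype and 3.71% ± 0.22 in Mirc11-/-. Within serine synthesis, Phgdh over Psph per kilobase was 10.5 ± 0.27 (SD, n = 3) in wildtype and 10.2 ± 0.66 in Mirc11-/-, a difference smaller than the larger SD.

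**Figure D3:**
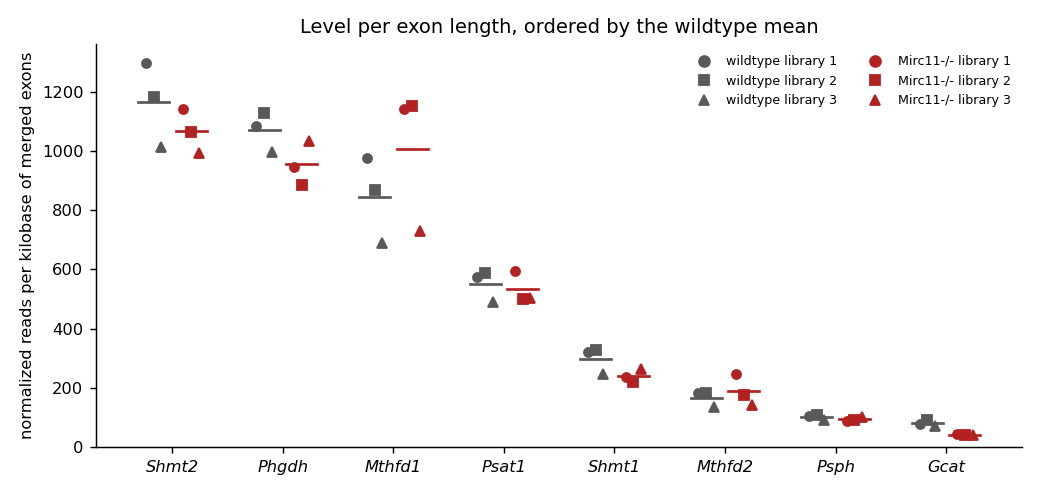
Normalized reads per kilobase of merged exons for the 8 enzymes, ordered by the wildtype mean, with symbols for the 3 wildtype (grey) and 3 Mirc11-/- (red) libraries and lines at the group means. Shmt2, Phgdh and Mthfd1 head the order in both genotypes and Gcat, at 79.6 in wildtype and 41.0 in Mirc11-/-, ends it.

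Over the 6 libraries the 5 genes most like Gcat, by Pearson's r of log2(value + 1) among the same 10553 genes, were Tpm4, a tropomyosin (r = 0.991), Gnptab, which tags lysosomal enzymes (r = 0.990), Snx9, a sorting nexin (r = 0.982), Trmt1, a tRNA methyltransferase (r = 0.981), and Prpsap2, a protein associated with phosphoribosyl pyrophosphate synthetase (r = 0.979). Their log2 differences ran from −0.54 for Tpm4 to −0.18 for Gnptab, all smaller in size than that of Gcat. These are the highest of many correlations over the same 6 libraries, which share their genotype split, and are given as a description only. Next to Gcat on chromosome 15 lies H1f0, a linker histone gene that ends 370 bases before Gcat starts on the same strand. H1f0 stood at 1154, 974 and 999 normalized counts in wildtype and at 599, 831 and 989 in Mirc11-/-, so library 3 lay within the wildtype range, unlike for Gcat. Galr3, which starts 3532 bases beyond Gcat, stood at 46.3, 32.8 and 53.7 against 25.5, 35.3 and 37.2, with overlapping groups.

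The promoter windows of RefSeq, from 250 bases before to 50 bases after the start in GRCm38, covered 9 of the 10 genes and were searched on both strands for 3 motifs. TGATGNAA, the composite element through which ATF4 and its partners bind, was in 0 of the 9, against 3.98% of the 16797 genes with a window. The E-box CACGTG was in 1, Gcat, where it begins 2 bases after the start, against 9.19% of genes. The letters CCAAT, which NF-Y binds, were in 7 of the 9, all but Gcat and Shmt2, against 42.1% of genes. The motifs were chosen with results of these data known, and a match is not a bound site. Examples outside annotated exons are shown to let the shared letters be seen, 5′ to 3′ along the gene, all on the minus strand, with CCAAT or its complement ATTGG in capitals.
Shmt1, chr11:60811296-60811324: atgctcccactgATTGGgccgctgtaggg
Psat1, chr19:15925079-15925107: tagtgagcgtggCCAATagggaggggagc
Phgdh, chr3:98340146-98340174: ttctgtttatttCCAATataaatcagcct
Mthfd2, chr6:83317635-83317663: ctgagatctcctATTGGctcctacgccgg
Gldc, chr19:30175491-30175519: caacccattcccATTGGctaaaggtttcc
Gldc carries the letters although it gave 1 read in 6 libraries, and Shmt2, with the highest level per kilobase of the 8, carries none of the 3 motifs in its window.

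The genes around these enzymes were read out in 8 lists that leave the 10 out. The lists were chosen with earlier results of these data known, so their counts, shares and p are a description and no independent test. Of the 77 genes listed, 76 were in the table and 69 were tested. At an adjusted p under 0.05, limma called 0 genes in either direction. At an unadjusted p under 0.05 by limma there were 4 positive and 2 negative differences, 8.7% of the 69 against 8.24% of all genes. By DESeq2, Sesn2 was called higher and Slc1a5 and Atf4 lower, which is 4.76% of the 63 with an adjusted p against 0.924% of all genes, and by edgeR 0 genes were called. The groups did not overlap for 2 higher and 4 lower genes, 8.7% of the 69 against 12.9% of all genes. The median log2 difference of the 69 was 0.02, with 42 positive and 27 negative.

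The list of ATF4 and the amino acid response held the smallest p, with 10 of its 13 tested genes positive and Atf4 itself among the negative ones. Atf4, the transcription factor that induces serine synthesis and amino acid uptake genes when amino acids run short, stood at 5784, 6182 and 7149 normalized counts in wildtype and at 4136, 4455 and 4651 in Mirc11-/-. The groups did not overlap, and the log2 difference was −0.53 (SE 0.10). The adjusted p was 0.322 by limma, 0.337 by edgeR and 0.00179 by DESeq2. By limma it was 0.021 without Mirc11-/- library 3 and 0.302 to 0.999 with any other library left out. The limma fit without Mirc11-/- library 3 called 303 genes higher and 228 lower of 15633 tested. Sesn2, a stress-induced sensor that restrains mTORC1, stood at 137, 144 and 193 against 323, 245 and 246, a difference of 0.78 (SE 0.19) with no overlap. Its adjusted p was 0.419 by limma, 0.424 by edgeR and 0.0274 by DESeq2. Asns, the asparagine synthetase and a textbook ATF4 target, was named after its values were seen: it stood at 1090, 734 and 543 against 1519, 1568 and 716, higher in the same 2 Mirc11-/- libraries as Mthfd1 and the erythroid markers. Its difference was 0.66 (SE 0.33), with an adjusted p of 0.621 by limma. That p became 0.0429 without Mirc11-/- library 3 and 0.727 to 0.999 with any other library left out.

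Of the transporters of serine and glycine, 9 of 11 were tested, with 4 positive and 5 negative differences. Slc1a5, a carrier of neutral amino acids that include glutamine and serine, stood at 3592, 3514 and 3226 normalized counts in wildtype and at 2843, 1574 and 1942 in Mirc11-/-. All 3 Mirc11-/- libraries were under the wildtype ones, and the log2 difference was −0.74 (SE 0.18). The adjusted p was 0.419 by limma, 0.429 by edgeR and 0.0366 by DESeq2. By limma it was 0.0279 without Mirc11-/- library 1 and 0.0826 to 0.999 with any other library left out. Slc6a9, a glycine transporter used by red cell precursors, stood at 46.3, 31.8 and 32.4 against 103, 71.7 and 40.2, a difference of 0.86 (SE 0.36, adjusted p = 0.576 by limma). Slc25a38, the mitochondrial glycine carrier of heme synthesis, was likewise named after its values were seen and stood at 656, 624 and 590 against 968, 869 and 601. Its adjusted p of 0.609 by limma became 0.0231 without Mirc11-/- library 3 and 0.698 to 0.999 with any other library left out. Both of these glycine carriers were highest in Mirc11-/- libraries 1 and 2, the libraries with the high erythroid markers, and the part of those markers was not tested.

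In threonine and glycine breakdown, 15 of 19 genes were tested, with 11 positive and 4 negative differences. Cth, which cleaves cystathionine, was near the detection limit at 1.97, 4.96 and 1.01 normalized counts against 8.51, 9.35 and 7.04, a difference of 1.49 (SE 0.53, adjusted p = 0.512 by limma). Sdsl, a serine dehydratase-like gene, stood at 505, 311 and 358 against 448, 636 and 500, with overlapping groups and a difference of 0.45 (SE 0.20, adjusted p = 0.597 by limma). Glyctk, a glycerate kinase, was named because its groups did not overlap, at 163, 133 and 132 against 102, 111 and 123, and its difference of −0.34 (SE 0.17) had an adjusted p of 0.629 by limma. In the ATF4 list the cystine carrier Slc7a11 did not overlap either, at 20.8 to 23.7 against 18.7 to 19.1 normalized counts. Its difference of −0.24 was smaller in size than its SE of 0.28, with an adjusted p of 0.826 by limma.

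The folate, purine and methionine lists held no gene at an unadjusted p under 0.05. For folate supply, 4 of 8 differences were positive, and the smallest p belonged to Fpgs, which adds glutamates to folate, at 0.21 (SE 0.12), and to the folate transporter Slc46a1 at −0.47 (SE 0.33). For the other folate one-carbon enzymes, 7 of 11 were positive, with Mtrr, which keeps methionine synthase active, at 0.23 (SE 0.13) and Aldh1l1, a formyl-folate dehydrogenase, at −0.15 (SE 0.18). For purine synthesis 3 of 6 were positive, with Paics at −0.12 (SE 0.08) and Pfas at 0.09 (SE 0.13). For the methionine cycle 2 of 5 were positive, with Ahcyl2 at 0.21 (SE 0.14) and Ahcy at −0.10 (SE 0.11). Of the enzymes that use glycine for heme, Alas1 stood at 4456, 5042 and 3524 against 5381, 3931 and 3190 normalized counts. The erythroid form Alas2 stood at 38.5, 28.8 and 24.3 against 156, 58.2 and 14.1, the highest and the lowest of its 6 values both being in Mirc11-/- libraries.

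**Figure D4:**
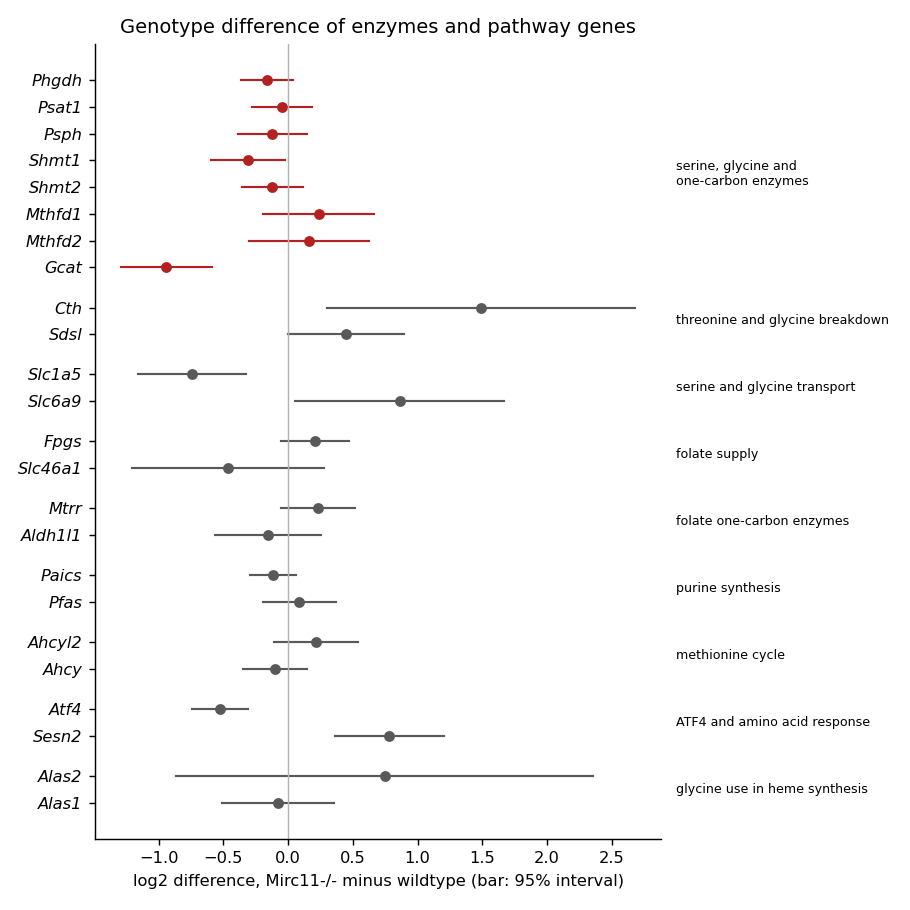
Log2 difference on the log2(value + 1) scale, Mirc11-/- minus wildtype, with 95% intervals from the limma fit of 3 against 3 libraries, for the 8 enzymes (red) and the 2 genes of each pathway list with the smallest p (grey). The interval of Gcat runs from −1.29 to −0.59, that of Shmt1 from −0.60 to −0.02 and that of Atf4 from −0.74 to −0.31. Those of the other enzymes include 0. Gcat was chosen by this contrast, so its interval is a description and no test.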

How the data were processed

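Per the labels, total RNA of sorted LSK cells was made into cDNA libraries with the NEBNext Ultra II kit. The methods give the gate as Lin-Sca1+cKit+, while one figure legend gives it as negative for Sca1. STAR, Cufflinks and mm10 (GRCm38) stand in the submitters' notes, while the supplementary methods name DE-seq and the human build hg19. Since the table lists mouse gene symbols, mm10 was assumed. No version or annotation is given in the sources used here. Although called FPKM, the deposited values are a signal: the authors divided each gene's read count by a size factor, and 100% of the values of each library were whole multiples of that step within 0.001, none divided by gene length. Totals were 15029379 to 17051541 reads counted to genes per library, and intervals from reads cover counting error only.

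The members and lists were chosen with earlier results of these data known. The 15662 genes whose mean reached 1 were compared by limma 3.58.1 (R 4.3.3) on log2(value + 1), with a mean-variance trend. Tests were two-sided, with Benjamini-Hochberg adjustment over all of them and a threshold of 0.05. Alternatives included edgeR 4.0.16 (quasi-likelihood) and DESeq2 1.42.0 on the recovered reads. A log2 difference understates the change of low genes. Named genes were the 10 enzymes, 2 genes of smallest p per list, 5 most like Gcat, its neighbours and overlapping genes. Outside this rule, Glyctk, Slc7a11, Asns, Slc25a38, Amt, Gcsh and Dld were named after their values were seen. The plan named RefSeq exons for lengths and overlaps, but GENCODE M21 exons were used, merging both gene models called Gcat. The fits were tested on simulated data.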

Additional observations from a re-analysis of the deposited data

How the results depend on the processing

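Over all genes, limma called 1 higher and 4 lower. Without the mean-variance trend it called 2 and 2, and DESeq2 called 38 and 87. Leaving out 1 library at a time gave 1 to 303 higher and 0 to 228 lower, the largest numbers being those without Mirc11-/- library 3. The causes were not tested. Of the pathway genes, 0 were called by limma, 3 by DESeq2 (Slc1a5, Atf4 and Sesn2) and 0 to 3 with 1 library left out: Slc1a5 without Mirc11-/- library 1, and Slc25a38, Atf4 and Asns without Mirc11-/- library 3. Of the 10 enzymes, Gcat was called by DESeq2 and without Mirc11-/- library 3, which is no test of a gene chosen by this contrast. Same-numbered deviations from the genotype means correlated at 0.07, −0.06 and 0.10, and only libraries 1 and 3 correlated best with their own number. With 3 libraries per genotype, these values cannot decide whether the replicate numbers pair the libraries. With the replicate number as a block, limma called 3 higher and 27 lower and 1 pathway gene, Atf4. Over the 15 alternatives the log2 difference of Gcat ran from −1.02 to −0.84. Single libraries moved other enzymes by over 1.5 times: Mthfd1 ran from 0.10 without wildtype library 3 to 0.46 without Mirc11-/- library 3, Mthfd2 stood at 0.01 and 0.34 in the same alternatives, Shmt2 ran from −0.22 without wildtype library 3 to −0.04 without wildtype library 1, and Psph from −0.19 without wildtype library 3 to −0.07 without Mirc11-/- library 1. Psat1 ran from −0.13 without Mirc11-/- library 1 to 0.00234 without wildtype library 2, where its sign changed, as it did for Mthfd2 without Mirc11-/- library 1 (−0.05). At this depth, Tdh and Gldc were at the limit of detection, with limits of 0.0623 to 0.0634 reads per 1000000 where a group held 0 reads.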
